A study of Mus musculus with 2 samples.

Results

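From the deposited table of liver transcripts, 11 rows for cytosolic ribosomal protein genes are described out of 8551 genes in all, chosen by gene symbol: Rpl or Rps followed by a digit, Rplp followed by a digit, or Rpsa, without the 3 listed Rps6k kinase genes. Of these, 6 code for the large (60S) subunit (Rpl4, Rpl14, Rpl15, Rpl22, Rpl34 and Rpl41) and 4 were counted with the small (40S) subunit (Rps3, Rps9, Rps26 and Rps27l, a close relative of Rps27). The remaining row, Rps19bp1, matched the symbol pattern but codes for a protein that binds Rps19 and is known as a regulator of Sirt1, so it belongs to neither subunit. The cytosolic ribosome has 80 core proteins, 47 in the large and 33 in the small subunit under the symbols used here. A row was found for 11 of their genes, among them Gnb2l1 (also called Rack1), which lies outside the symbol rule, and the other 69 were not analysed here.

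The samples were livers of 9-week-old male mice, wild type (normal) or db/db (diabetic), both labelled as C57BL/6 in background and collected about 3 h into the light period. Mice homozygous for db lack the working long form of the leptin receptor in every cell, overeat and become obese and diabetic, so genotype, feeding and body weight cannot be told apart here. There was 1 library per group, so no difference has a replicate check. The study's methods do not say how many livers went into a library, and they name 2 animal suppliers without saying which mice came from which. Values are the tags of a gene per 1000000 clean tags of its library (called TPM by the authors and here). One read was worth 0.0973 TPM in the normal library, of 10278530 clean tags, and 0.0740 TPM in the diabetic library, of 13508232. Ratios are diabetic over normal, and their 95% Clopper-Pearson intervals, built from the reads, cover counting error only. PCR copies of a molecule were not marked, so reads need not be separate molecules and the intervals may be too narrow. A gene is called higher or lower where it differed at least 1.5-fold with a false discovery rate (FDR) under 0.001 in a two-sided exact binomial test adjusted over the whole table. Such a call sets 1 library against the other and says nothing of the spread between mice.

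A ribosome reads an mRNA with its small subunit and joins amino acids in its large subunit, and each assembled subunit carries most of its proteins in a single copy. Ribosomal protein mRNAs of mammals start with a pyrimidine-rich stretch, the terminal oligopyrimidine (TOP) motif, through which nutrient and insulin signals acting on mTOR set how well they are translated. Their genes have left many processed pseudogenes in the mouse genome, near-identical copies made by reverse transcription. In liver the ribosome serves the large output of plasma proteins. The values here are mRNA tags and carry no information on translation.

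Counts of called genes are read against the whole table, where 22.9% of genes were called higher and 8.19% lower. Both libraries carried hepatocyte transcripts, with 9 of 10 hepatocyte markers measured (summed 34185 TPM in the normal and 20747 TPM in the diabetic library, 3 called lower and 1 higher) and albumin (Alb) at 6801 and 6912 TPM. Markers of other cells were measured for 8 of 12 Kupffer cell genes (summed 326.5 and 193.7 TPM, 4 called lower and 1 higher), 10 of 10 endothelial genes (141 and 125.7 TPM, 2 called lower and 1 higher), 3 of 12 lymphocyte genes (7.30 and 5.32 TPM), 7 of 8 stellate genes (117 and 159 TPM, 1 called in each direction), 3 of 5 cholangiocyte genes (61.5 and 107 TPM, 1 called higher), 1 of 7 erythroid genes (51.9 and 44.2 TPM) and 3 of 11 proliferation genes (5.93 and 8.52 TPM). Single genes carried several of these sums. Without Apoa1 (14668 and 2875 TPM) the hepatocyte sums were 19517 and 17872 TPM, without C1qa (176.5 and 50.7 TPM) the Kupffer cell sums were 150.03 and 142.95 TPM, and without Spp1 (57.2 and 103 TPM) the cholangiocyte sums were 4.28 and 4.22 TPM. The endothelial sums without Clec4g were 93.3 and 95.05 TPM and the lymphocyte sums without Cd79b 2.63 and 2.88 TPM, so their direction turned. The part of these markers in the results below was not tested, and in whole liver fewer cells of a type and less RNA per cell cannot be told apart. The median log2 ratio of all genes was 0.25, and rescaling the libraries to each other by 4 methods lowered every log2 ratio by 0.26 to 0.31, so each gene is also read against that shift.

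The assay cut cDNA with DpnII at its site, GATC, and sequenced the adjoining tag, so what a ribosomal protein gene can yield depends on its own sites. In the mouse transcripts of GENCODE release M21 (GRCm38), taken for each gene from transcripts paired with a RefSeq mRNA, the GATC site nearest to the 3′ end was read with the 17 bases after it. A site with fewer than 17 bases after it was passed over. Of the 80 core genes, 28 (35.0%) had a tag found in no other gene and 48 (60%) had one that also occurs in another gene, mostly pseudogenes. The other 4 (5%) had no site with a full tag: Rpl29, Rpl31, Rpl37a and Rps21. Over 20494 protein coding genes a tag shared with another gene was found for 10.98%, and over the 8088 of them with a row in the table for 3.67%. Of the 11 core genes with a row, 9 had a tag of their own and 2, Rpl34 and Rpl41, had a shared one. Of the 69 core genes not analysed here, 46 (66.7%) had a shared tag and 19 a tag of their own, among them Rpl11, Rpl8, Rplp2 and Rps24. The study's text sets tags mapped to a unique gene apart from those mapped to several and speaks of quantifying unique genes, but whether the latter tags entered the values is not stated. The reads of the listed genes made up 37.06% of the clean tags in the normal and 44.37% in the diabetic library. Both lie nearer to the study's average share of reads mapped to unique genes than to its larger share mapped to genes. Whether a shared tag was counted is still not stated for any single gene. The part of tag sharing in which genes have a row was not tested.

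**Figure D1:**
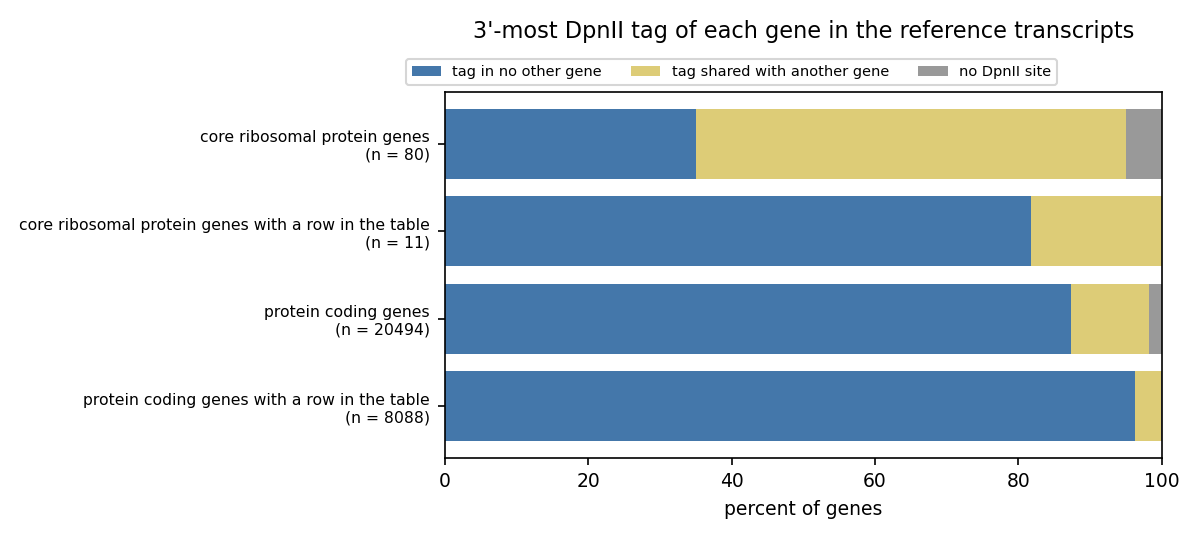
Share of genes, in percent of each set, whose DpnII tag nearest to the 3′ end occurs in no other gene, also occurs in another gene, or does not exist for want of a site with a full tag (drawn as no DpnII site). The shared class holds 60% of the 80 core ribosomal protein genes and 10.98% of all protein coding genes, but 2 of the 11 core genes that have a row.

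The tags of 3 ribosomal protein genes called between the libraries, and of the 3 with the fewest reads, are shown because the value of each gene rests on such short reads. Capitals mark the DpnII site.
Rpl41: GATCgcctggagaaatgaccg
Rpl34: GATCaagcgggctttccttat
Rpl22: GATCactttttgtattaaagt
Rpl15: GATCtagagtatggatttgga
Rps3: GATCcatatatttctaagtcc
Rpl14: GATCctttatacagggggtac

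In GRCm38 these tags lie in exons. That of Rpl41 is in the 3′ UTR at chr10:128548239-128548259 (minus strand), and it is the only DpnII site of that transcript. The Rpl34 tag is in a coding exon at chr3:130726939-130726959 (minus strand), 129 bases from the transcript's end, and 6 processed pseudogenes hold the same letters. The Rpl22 tag is in the 3′ UTR at chr4:152334035-152334055 (plus strand), 37 bases from the end. The 3 genes with few reads have their tag of their own in the 3′ UTR, for Rpl15 at chr14:18268450-18268470 (minus strand), for Rps3 at chr7:99478259-99478279 (minus strand) and for Rpl14 at chr9:120574561-120574581 (plus strand). The 2 other sites of Rpl14 and the 2 sites of Rpl15 nearest to its 5′ end have tags that occur in other genes too, while 4 of the 5 tags of Rps3 are its own.

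Of the 11 rows, 2 were called higher (Rpl41 and Rps19bp1) and 3 lower (Rpl22, Rpl34 and Rps9) in the diabetic library, and 6 were not called. Over all 8551 genes, 22.9% were called higher and 8.19% lower. Without Rps19bp1, 1 of 10 ribosomal protein genes was called higher and 3 of 10 lower, their median log2 ratio was -0.08, and 2 of the 10, Rpl41 and Rpl15, lay above the median of all genes. With 10 genes these shares move by large steps, and no test was made over them.

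**Figure D2:**
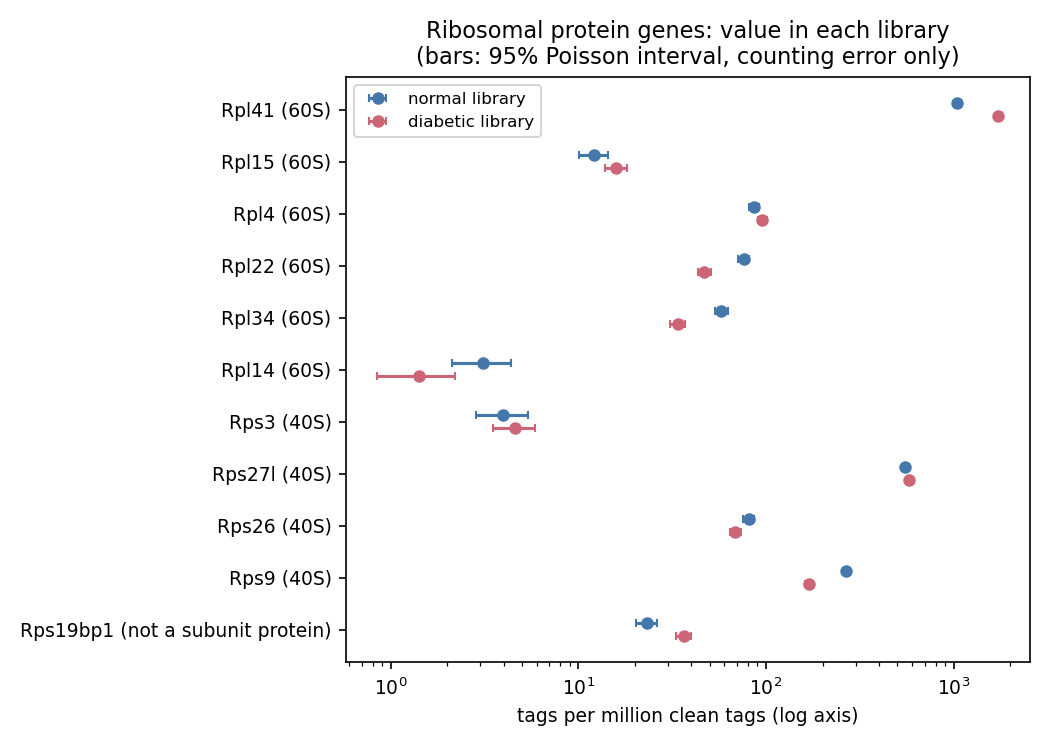
Value of each gene in TPM (tags per 1000000 clean tags, log axis) in the normal (blue) and the diabetic (red) library, 1 library each, with 95% Poisson intervals for counting error. Rpl41 sits highest in both libraries and moves from 1045 to 1713, while Rpl14 and Rps3 lie under 5 with intervals that overlap between the libraries.

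Among large subunit genes, Rpl41, which codes for the shortest ribosomal protein, a basic peptide at the bridge between the subunits, had 10745 reads (1045 TPM) in the normal and 23143 reads (1713 TPM) in the diabetic library. The diabetic library was higher, 1.64-fold (log2 ratio 0.71, interval 0.68 to 0.75). Rescaled by trimmed mean of M values (TMM), the log2 ratio of Rpl41 was 0.46, under 1.5-fold, and the call was lost under all 4 rescalings. Its tag also occurs in Gm10076, a gene that the annotation does not class as a pseudogene, so its reads cannot be assigned to Rpl41 with certainty.

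Rpl34, another large subunit protein, had 594 reads (57.8 TPM) in the normal and 457 reads (33.8 TPM) in the diabetic library. It fell 1.71-fold (log2 ratio -0.77, interval -0.95 to -0.59, exact test FDR 4.3e-17). One of the processed pseudogenes that hold the Rpl34 tag, Gm10154, has a row of its own, with 3837 reads (373 TPM) in the normal and 3300 reads (244 TPM) in the diabetic library. This row, looked up after the tag was matched, was lower as well, 1.53-fold (log2 ratio -0.61, interval -0.68 to -0.54, exact test FDR 3.7e-70). Since both genes hold this tag, reads of Rpl34 and Gm10154 cannot be told apart there. Rpl34 also has 2 sites nearer to its 5′ end with tags found in no other gene. Of the 4 sites in its transcript, the last lies too near the 3′ end for a full tag and was passed over. Which site gave the reads of Rpl34 is not known, so its level is uncertain.

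Rpl22, an RNA-binding protein of the large subunit, had 780 reads (75.9 TPM) in the normal and 634 reads (46.9 TPM) in the diabetic library. It fell 1.62-fold (log2 ratio -0.69, interval -0.85 to -0.54, exact test FDR 1.8e-18). All 5 tags of its transcript are its own. Rpl4, which lines the tunnel through which the new peptide leaves the ribosome, was at 86.2 and 95.6 TPM with 886 and 1291 reads. Its log2 ratio of 0.15 (interval 0.02 to 0.27) was not called and changed sign under the 4 rescalings, -0.11 with TMM.

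Rpl15, one of the genes mutated in Diamond-Blackfan anaemia, an inherited failure of red cell production, was at 12.1 TPM with 124 reads in the normal and 15.9 TPM with 215 reads in the diabetic library. The log2 ratio was 0.40 (interval 0.07 to 0.73), with an exact test FDR of 0.026. Rpl14, also of the large subunit, had the fewest reads of all, 32 in the normal and 19 in the diabetic library (3.11 and 1.41 TPM). Its log2 ratio of -1.14 had a wide interval of -2.05 to -0.28 and did not pass the test (exact test FDR 0.014), so a difference of more than 1.5-fold was measured but not called at this depth.

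Among small subunit genes, Rps9, which with Rps2 and Rps3 forms the opening where the mRNA enters, had 2739 reads (266 TPM) in the normal and 2281 reads (169 TPM) in the diabetic library. The diabetic value was 1.58-fold lower (log2 ratio -0.66, interval -0.74 to -0.58, exact test FDR 3.3e-57). Rps26, which touches the mRNA at the exit side and is another Diamond-Blackfan gene, was at 80.95 TPM (832 reads) and 68.6 TPM (927 reads), a log2 ratio of -0.24 (interval -0.37 to -0.10) that was not called. Rps9 and Rps26 were lower in the diabetic library beyond counting error, and Rps9 alone of them passed both criteria.

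Rps3, which lies at the mRNA entry and is also known as a DNA repair enzyme, had only 41 reads (3.99 TPM) and 62 reads (4.59 TPM). The log2 ratio of 0.20 had an interval of -0.39 to 0.81 and an exact test FDR of 0.64, so no difference was detectable at this depth. Rps27l, a relative of Rps27 that p53 induces, was at 552 TPM (5669 reads) in the normal and 579 TPM (7827 reads) in the diabetic library. With a log2 ratio of 0.07 (interval 0.02 to 0.12) it was nearly level, and below 0 under the 4 rescalings (-0.18 with TMM). Rps27 itself was not analysed here. Gnb2l1, a scaffold protein on the head of the small subunit that lies outside the symbol rule, was close to Rps27l in its ratio, with 309 and 327 TPM (3180 and 4411 reads) and a log2 ratio of 0.08 (interval 0.01 to 0.14).

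Rps19bp1, the row outside both subunits, had 239 reads (23.25 TPM) in the normal and 492 reads (36.4 TPM) in the diabetic library. It rose 1.57-fold (log2 ratio 0.65, interval 0.42 to 0.88, exact test FDR 2.9e-08), and under TMM its log2 ratio was 0.39 and no longer called. This row moved opposite to Rps9, Rpl22 and Rpl34, and it is left out of all subunit values.

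**Figure D3:**
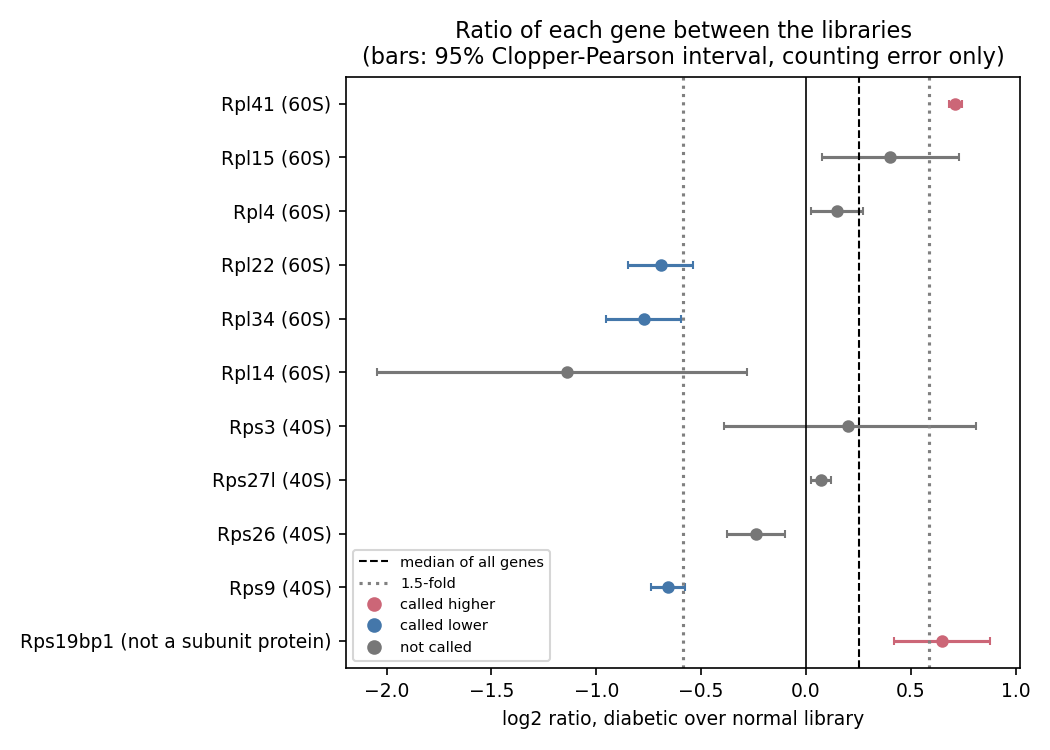
Log2 ratio of the diabetic over the normal library for each gene with its 95% Clopper-Pearson interval (counting error only), coloured by call, with the 1.5-fold lines dotted and the median of all genes, 0.25, dashed. Rpl41 and Rps19bp1 lie to the right of the upper 1.5-fold line, and Rpl22, Rpl34, Rps9 and Rpl14 to the left of the lower one. Rpl14 lies farthest left with the widest interval and was not called.

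The large and the small subunit did not separate by the ratios of their genes. The 6 large subunit genes ranged from -1.14 to 0.71 in log2 ratio with a median of -0.27, and the 4 small subunit genes from -0.66 to 0.20 with a median of -0.08, beside 0.25 over all genes. Called higher were 1 of 6 large and 0 of 4 small subunit genes, and called lower 2 of 6 and 1 of 4. Below the median of all genes were 4 of the 6 large and all 4 of the small subunit genes. Under TMM the medians were -0.53 and -0.34. The large subunit median moved to 0.15 when genes with a mean under 5 TPM were left out, which drops Rpl14, and to -0.69 without Rpl41. The corresponding small subunit median was -0.24 without Rps3 and also -0.24 without Rps27l. No test compares the subunits, since genes are not replicates of a condition.

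**Figure D4:**
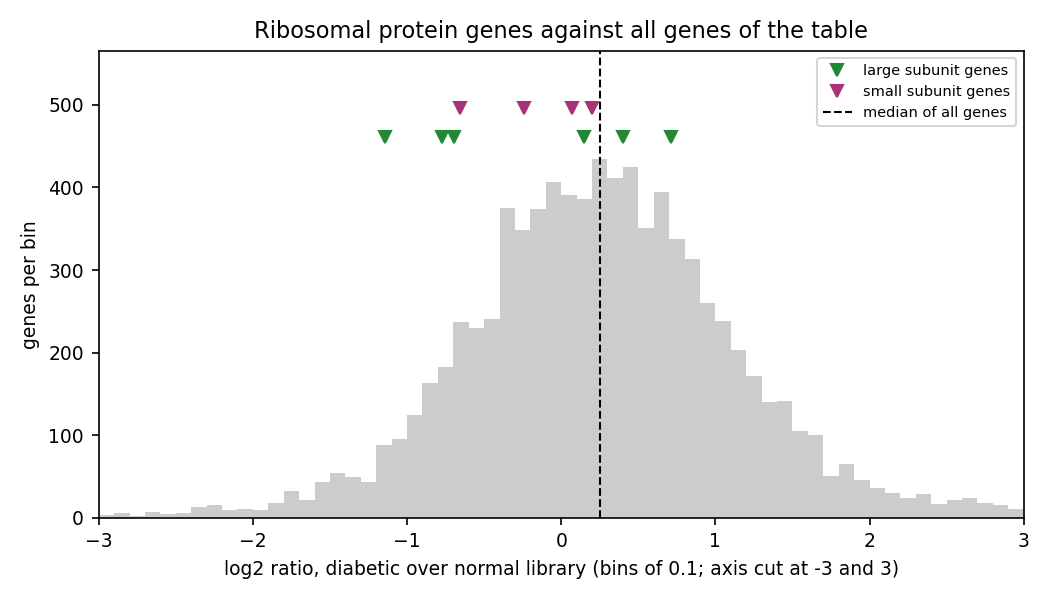
Number of genes per bin of 0.1 in log2 ratio (diabetic over normal) for all genes of the table, grey, with 148 genes beyond the axis, and the position of each large (green) and small (purple) subunit gene above it. All 4 small subunit genes and 4 of 6 large subunit genes lie left of the median of all genes, 0.25.

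Summed over the described core genes of the symbol rule, the subunits went in opposite directions, and 1 gene decided it. The 6 large subunit genes summed to 1280 TPM in the normal and 1907 TPM in the diabetic library, 1.49-fold (interval 1.46 to 1.52), and Rpl41 supplied 81.6% and 89.8% of those sums. Without Rpl41 the other 5 summed to 235 and 194 TPM, a ratio of 0.824 (interval 0.779 to 0.871). The 3 core small subunit genes of the rule (Rps3, Rps9 and Rps26) summed to 351 and 242 TPM, a ratio of 0.689 (interval 0.657 to 0.722). Gnb2l1, a core gene outside the rule, is not in this sum. With it the sums were 660.8 and 568.6 TPM. Without Gnb2l1, small over large was 0.274 (interval 0.264 to 0.285) in the normal and 0.127 (interval 0.122 to 0.132) in the diabetic library with Rpl41. Leaving out Rpl41, it was 1.495 (interval 1.42 to 1.57) and 1.25 (interval 1.19 to 1.32). With both Rpl41 and Rps9 left out it was 0.361 (interval 0.334 to 0.391) and 0.378 (interval 0.351 to 0.407), and these intervals overlap. With Gnb2l1 added, small over large without Rpl41 did not fall (660.8 over 235 and 568.6 over 194 TPM). The fall from 1.495 to 1.25 thus rests on leaving Gnb2l1 out. Tags were counted for few genes of each subunit and are not molar amounts, so the sums do not measure subunit numbers.

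**Figure D5:**
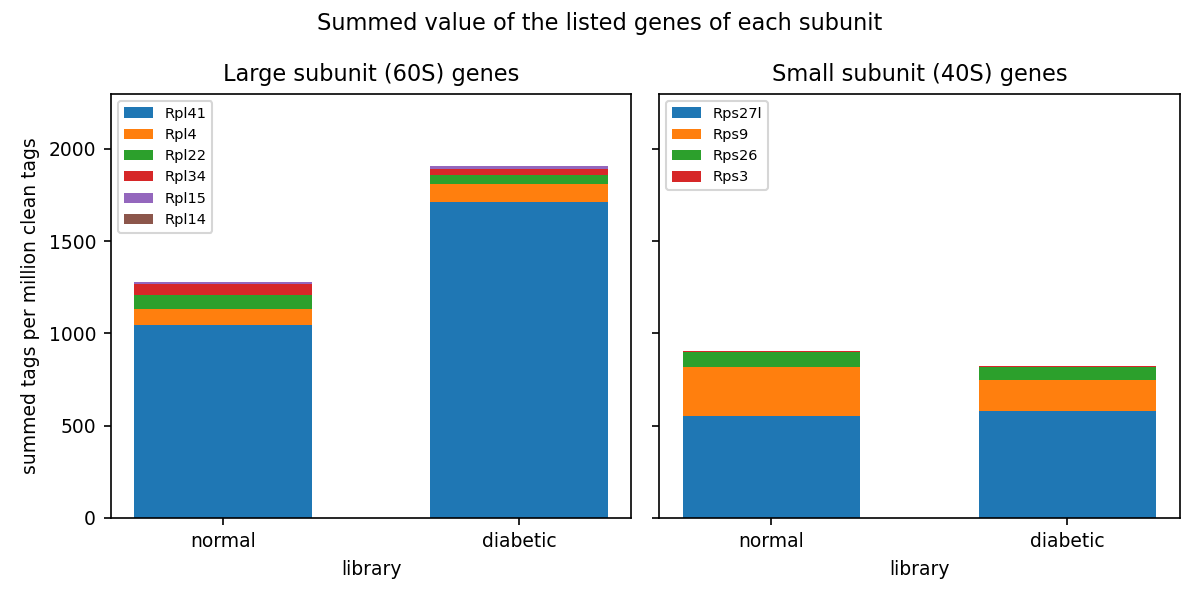
Summed TPM of the large subunit genes (left) and small subunit genes (right) described under the symbol rule, with Rps27l and without Gnb2l1, in each library, stacked by gene. Rpl41 makes up 81.6% of the large subunit sum in the normal and 89.8% in the diabetic library, and Rps27l 61.1% and 70.5% of the small subunit sum.

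The start sites of these genes were read for the pyrimidine runs typical of TOP mRNAs, in RefSeq promoters of GRCm38.p6, which matched all 10 ribosomal protein genes described. An uninterrupted run of at least 8 C or T on the transcript strand, reaching within 20 bases of the annotated start site, was sought. It was found in 8 of their 13 promoters (61.5%), in 34 of 69 promoters of core genes (49.3%) and in 6893 of all 32851 promoters (20.98%). The 69 promoters belong to 59 of the 80 core genes. The windows below run from 15 bases before to 15 bases from the start site and are shown for 3 genes with a run and for Rpl41 without one. Capitals mark the longest run.
Rpl15: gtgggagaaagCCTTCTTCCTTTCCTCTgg
Rpl34: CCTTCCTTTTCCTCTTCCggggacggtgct
Rpl14: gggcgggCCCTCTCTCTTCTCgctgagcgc
Rpl41: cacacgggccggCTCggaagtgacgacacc

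They lie at chr14:18270972-18271001 (minus strand), chr3:130730323-130730352 (minus), chr9:120571502-120571531 (plus) and chr10:128549154-128549183 (minus). The run was 17 bases long in Rpl15, 20 at this start site of Rpl34 (part of it outside the window), 14 in Rpl14 and 3 in Rpl41. Annotated start sites can be off by some bases, so the absence of a run says only that these letters were not in this window. Runs that did not cover the annotated start site were counted too. They lay wholly upstream of it in Rpl4, in Rps27l and at the other start site of Rpl34, and wholly downstream in Rps26. The presence of a run thus does not show a TOP motif in the mRNA. The genes with the longest runs differed in their ratios, Rpl34 at -0.77 and Rpl15 at 0.40.

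Other mRNAs known to carry a TOP motif were compared from a list of 18, written with earlier results of these data known. Of these, 7 were measured, Gnb2l1 among them. Called higher were 4 of the 7 and lower 0, with a median log2 ratio of 0.62 (0.37 under TMM), against 22.9% and 8.19% of all genes. Under TMM 1 of the 7, Eif3f, stayed higher and Pabpc1 was called lower, and under the other 3 rescalings 0 were higher and Pabpc1 was again lower, so the higher calls rest on the deposited scale. Of all genes, 13.3 to 14.7% were called higher and 13.6 to 14.8% lower under the 4 rescalings. The 4 called on the deposited scale were Eif3f, a subunit of the initiation factor eIF3 (14.2 and 25.5 TPM, log2 ratio 0.84), Eif3h of the same complex (67.1 and 113.6 TPM, 0.76), Eif4b, a cofactor of the helicase that opens mRNA leaders (20.9 and 33.8 TPM, 0.69), and Eef1b2, an exchange factor of elongation (210.2 and 324 TPM, 0.62). Pabpc1, the poly(A)-binding protein, named after its value was seen as the one below 0, was at 157 and 124 TPM with a log2 ratio of -0.35, not called on the deposited scale. The 10 ribosomal proteins on this scale had a median of -0.08, and the difference between the lists was not tested.

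Factors that build ribosomes in the nucleolus and cytoplasm were measured for 44 of 60 listed genes. Called higher were 13 (29.5%, beside 22.9% of all genes) and called lower 4 (9.09%, beside 8.19%), shares near those of the table, with a median log2 ratio of 0.40 (0.14 under TMM) and a range from -1.11 to 1.71. Under each of the 4 rescalings 4 were called higher (Bop1, Nop10, Pno1 and Rrs1) and 6 lower (Nop2, Rrn3, Tsr1, Utp14a, Gnl3 and Polr1c). Those are 9.09% and 13.6% of the 44. Of all genes, 13.3 to 14.7% were called higher and 13.6 to 14.8% lower under these rescalings. The largest ratios among those called on the deposited scale were Rrs1, needed for the 5S particle of the large subunit (2.53 and 8.29 TPM, log2 ratio 1.71, interval 1.09 to 2.39), Nop10, a component of the particles that convert uridine to pseudouridine in rRNA (74.5 and 218 TPM, 1.55), Pno1, which binds the small subunit precursor (8.27 and 21.8 TPM, 1.40), and Dkc1, the pseudouridine synthase that works with Nop10 (2.63 and 6.44 TPM, 1.29, not called after rescaling). The genes called lower, the last 3 of them named after their values were seen, were Nop2, an rRNA methyltransferase (16.7 and 7.77 TPM, -1.11), Utp14a, of the small subunit processome (8.17 and 3.85 TPM, -1.09), Tsr1, a GTPase-like factor on the small subunit precursor (115.5 and 56.9 TPM, -1.02), and Rrn3, the factor that readies RNA polymerase I (10.8 and 5.70 TPM, -0.92). Factors for the small subunit stood on both sides, Pno1 higher and Tsr1 lower. Of the P stalk (4 genes) and the 5S particle (2 genes) of the ribosome no protein gene was analysed here, and 2 of 19 Diamond-Blackfan genes were, Rps26 and Rpl15.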

How the data were processed

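Poly(A) RNA of 1 normal and 1 diabetic liver library was profiled by DpnII tag sequencing. The authors trimmed adaptors, matched the clean tags that passed their quality screen to RefSeq, and deposited RPM values (called TPM there), rounded to 2 decimals, with 0.01 where a gene had no tag. The submitters' processing notes name mm9, and the aligner is not given in the sources used here. No gene with a mean under 1 TPM was present. The number of sample columns not used was 0.

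The steps between low values gave what 1 read is worth, and from it the reads and clean tags. Whole reads, to within rounding to 2 decimals, were found for 8513 of 8513 values above the placeholder in the normal and 8536 of 8537 in the diabetic library. The two-sided exact binomial test was adjusted by Benjamini-Hochberg over 8551 genes. It was tested on simulated reads. One row that matches the symbol rule is not reported here and enters no subunit value. Named genes were the other members, the called genes of the lists with the largest ratios, up to 5 per list, and the core genes outside the symbol rule. Alternatives were 4 scalings (TMM, sum, median ratio, upper quartile), a minimum mean of 5 TPM, a pseudocount of 1 TPM, a threshold of 2-fold, the fold alone, Audic and Claverie's test, and a beta-binomial test that assumes a variation of 20% or 40% between samples. Tags of 21 bases were read from GENCODE M21 transcripts. The length of the pyrimidine run, the search for other rows with a ribosomal protein tag, the list calls under rescaling with the genes they name, and the marker sums without 1 gene were chosen after the values were seen. The members and lists were chosen with earlier results of these data known. Statistics were run in scipy 1.17.1 under Python 3.11.15, tables in pandas 2.3.3 with numpy 2.4.6, and plots in matplotlib 3.10.9.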

Additional observations from a re-analysis of the deposited data

How the results depend on the processing

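With 1 library per group no replicate could be left out. No paired analysis was possible because each group has 1 library. Counts of ribosomal protein rows stayed at 2 higher and 3 lower with a pseudocount of 1 TPM, a minimum mean of 5 TPM and the Audic-Claverie test, and the fold alone added Rpl14 as lower. Under each of the 4 scalings 0 rows were called higher and 3 lower (Rpl22, Rpl34 and Rps9). Of all genes, 13.3 to 14.7% were called higher and 13.6 to 14.8% lower under these scalings. At 2-fold, and with an assumed variation of 20% or 40% (chosen after seeing the data, in place of a planned test that was not run), 0 rows were called in either direction. Core proteins of the symbol rule only, or rows without Rpl41 and Rps27l, left 1 higher and 3 lower.

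All genes called higher and lower numbered 1249 and 1165 when scaled to the listed sum, 1260 and 1160 by TMM, 1135 and 1262 by median ratio, 1220 and 1183 by upper quartile, 1236 and 387 at 2-fold, 2941 and 1310 by the fold alone, 241 and 77 at 20% and 20 and 8 at 40% assumed variation, beside 1955 and 700. The median log2 ratio of the large subunit was -0.53, -0.53, -0.58 and -0.54 under the 4 scalings in this order, 0.15 with a minimum mean of 5 TPM and -0.69 without Rpl41. That of the small subunit was -0.34, -0.34, -0.39 and -0.35. It was -0.24 with a minimum mean of 5 TPM, without Rps27l as the most abundant gene, or with core proteins of the symbol rule only. With Gnb2l1 added to those core proteins it was -0.08. Small over large summed reads, all without Gnb2l1, are given for the normal and diabetic libraries. They were 0.361 and 0.378 without Rpl41 and Rps9, 1.495 and 1.25 without Rpl41, and 0.705 and 0.431 with Rps27l added. Below 0 under the 4 scalings were Rps27l (-0.19, -0.18, -0.23 and -0.20), Rpl4 (-0.11, -0.11, -0.16 and -0.12) and Rps3 (-0.057, -0.053, -0.10 and -0.066). A scaling subtracts 1 number from every log2 ratio, which accounts for these shifts. Depth limits Rpl14 and Rps3, with under 100 reads in each library.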
